A study of Mus musculus with 8 samples.

Results

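The ionotropic glutamate receptor subunit genes examined here are the 4 AMPA receptor genes Gria1, Gria2, Gria3 and Gria4, the 4 NMDA receptor genes Grin1, Grin2a, Grin2b and Grin2d, and the kainate receptor genes Grik2 and Grik5, which make up 10 of the 22691 genes of the deposited read count table. They were picked by gene symbol after their levels, their mix within each receptor class and their change with Nfib had been seen, so those 3 measures are descriptions. Fits over all genes are given for the change, and for the members they are no independent support. A further 7 ionotropic subunit genes of the table serve as company for them: Grin2c, Grin3a, Grin3b, Grik1, Grik3, Grik4 and Grid1.

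RNA was sequenced from cells derived from primary lung tumors of mice, a model of small cell lung cancer (SCLC), a neuroendocrine tumor. There were 4 Nfib libraries, from cells made to overexpress mouse Nfib, which encodes a DNA-binding factor of the nuclear factor I group, and 4 empty vector libraries from the same lines. Every library carried the genotype invCAG-Mycl-Luc with Rb1-/- and Trp53 -/- on a background of FVB/n and 129/Ola. Libraries with the same number form a pair. By the sample descriptions pair 1 is line Lmyc1, pairs 2 and 3 are line Lmyc3, and pair 4 is line Lmyc5. Thus 3 line names stand behind 4 pairs. The sample descriptions call pairs 1 and 2 old and pairs 3 and 4 new, which no source used here explains. Where the sample titles write Tumor, the source field gives Nfib overexpression, and groups follow that field. The vector and the promoter that drove Nfib, and whether libraries of a line came from separate cultures, are not given. Below, culture means a line with its label word, that is, a pair. Without pairing, p-values reflect a spread that includes differences between lines. With pairing, they reflect a spread of the change among pairs, of which a technical part cannot be told apart.

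Library totals ran from 22192747 to 25160412 counts in the Nfib arm and from 21815264 to 29934021 counts in the empty vector arm, with 17530 to 18227 genes seen in a library. Values are CPM, counts scaled to an equal effective library size. A count of 0 allows up to 3 counts, at most 0.142 CPM in these libraries, counting error alone considered. Nfib itself had 1281, 4672, 2929 and 3583 CPM in the Nfib libraries of pairs 1 to 4, against 71.9, 399, 163 and 487 CPM in the empty vector libraries, so the arms did not overlap. Summed over 7 neuroendocrine markers (Insm1, Chga, Syp, Uchl1, Nkx2-1, Calca and Neurod1), the level was 1695 to 2399 CPM with Nfib and 2223 to 3071 CPM with empty vector. The neuron markers Rbfox3, Tubb3 and Map2 summed to 245 to 816 CPM with Nfib and 236 to 919 CPM with empty vector. The highest sum of any other marker list was 37.5 CPM with Nfib, for glia, and 11.2 CPM with empty vector, again for glia and almost all of it Aqp4, while Gfap, Ptprc, Cdh5, Sftpb, Col1a1, Col1a2 and Scgb1a1 did not pass 0.203 CPM in any library. Other markers of the same lists were higher in at least 1 library. Pdgfra reached 12.1 CPM, Sftpc 10.3, Kdr 6.47, Cd68 2.30 and Pecam1 0.425 CPM.

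Ionotropic glutamate receptors are tetrameric cation channels opened by glutamate, and in the brain they carry most fast excitatory transmission. AMPA receptors assemble from the Gria subunits, and a receptor that holds an edited Gria2 subunit passes little calcium. NMDA receptors need the glycine-binding subunit Grin1, which pairs with glutamate-binding Grin2 subunits or with Grin3 subunits. In kainate receptors Grik2 can form a channel alone, whereas Grik5, a high-affinity glutamate-binding subunit, needs a partner from Grik1 to Grik3.

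The property that sets Gria2 apart among the AMPA subunits rests on 1 codon of the pore loop. In the genome this codon encodes glutamine, and in Gria2 RNA an editing enzyme of the ADAR family turns it into an arginine codon. The 30 bases around it are shown for the 4 AMPA genes, on the coding strand of GRCm38 with the GENCODE transcripts, with the codon of this glutamine/arginine site in capitals:
Gria1: ggggccttcatgCAGcaaggatgtgacatt
Gria2: ggtgcctttatgCAGcaaggatgcgatatt
Gria3: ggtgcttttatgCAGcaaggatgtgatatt
Gria4: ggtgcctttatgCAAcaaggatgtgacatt
They lie at chr11:57243082-57243111 (plus strand, codon 600, exon 11), chr3:80706896-80706925 (minus strand, codon 607, exon 11), chrX:41610253-41610282 (plus strand, codon 612, exon 11) and chr9:4464122-4464151 (minus strand, codon 608, exon 12), with codons counted from the start codon. Any 2 of the 4 windows differ at 2 to 4 of the 30 bases, and all 4 genes carry a glutamine codon in the genome. Counts per gene hold no information on the edited share.

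The 250 bases before the annotated start are shown for Gria2, the most abundant member per kilobase of coding sequence and the one whose change with Nfib varied least between pairs, and for Grin1, the obligate NMDA subunit, from RefSeq on GRCm38.p6, 5′ to 3′ on the strand of the gene, at chr3:80802836-80803085 and chr2:25319188-25319437, both on the minus strand. Capitals mark a match to the nuclear factor I half-site TTGGC, on either strand:
Gria2: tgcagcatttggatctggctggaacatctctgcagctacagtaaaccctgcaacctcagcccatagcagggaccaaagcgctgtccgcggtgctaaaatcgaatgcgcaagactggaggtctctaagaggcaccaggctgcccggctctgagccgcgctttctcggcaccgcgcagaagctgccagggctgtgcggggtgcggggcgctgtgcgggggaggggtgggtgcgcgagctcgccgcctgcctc
Grin1: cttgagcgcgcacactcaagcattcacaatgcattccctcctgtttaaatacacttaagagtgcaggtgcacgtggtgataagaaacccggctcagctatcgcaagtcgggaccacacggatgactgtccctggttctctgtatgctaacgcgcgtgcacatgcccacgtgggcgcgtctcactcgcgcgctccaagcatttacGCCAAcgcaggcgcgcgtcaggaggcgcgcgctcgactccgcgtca
RefSeq windows of 300 bases, which add the 50 bases after the start, were at hand for 6 of the 10 members, namely Gria2, Gria4, Grin1, Grin2d, Grik2 and Grik5. The half-site was found in 2 of them, starting 46 bases before the start of Grin1 and 215 bases before the start of Grik5, and among all 32851 windows of that length it was found in 46.7%. The full palindrome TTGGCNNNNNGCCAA, which holds the half-site on both strands, was found in 0 of the 6 and in 0.0365% of all windows. A match is a description of these letters, and its absence from a window says nothing of binding.

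Among the AMPA receptor genes, Gria2 and Gria4 carried nearly all of the RNA, Gria2 in every culture and Gria4 in some. Gria2 (ENSMUSG00000033981, chr3:80684936-80802791, minus strand) had 195, 79.4, 80.1 and 146 CPM in the Nfib libraries of pairs 1 to 4, against 294, 119.9, 126 and 210.2 CPM in the empty vector libraries. Both Lmyc3 pairs were lower than the Lmyc1 and Lmyc5 pairs in either arm, and in each pair the Nfib library was the lower one, although the ranges of the arms overlapped.

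Gria4 (ENSMUSG00000025892, chr9:4417899-4796234, minus strand) encodes the AMPA subunit GluA4. It had 112, 0.23, 6.17 and 249 CPM in the Nfib libraries, against 127, 0.24, 6.63 and 268 CPM in the empty vector libraries. It was high in Lmyc1 and Lmyc5 and low in both Lmyc3 pairs, which also differed from each other, with 5 counts in either library of the old pair. Over the 4 cultures, on the log2 CPM scale averaged over the arms, Gria4 spanned 9.68 and Gria2 spanned 1.30.

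Gria3 (ENSMUSG00000001986, chrX:41400854-41678601, plus strand), encoding GluA3, had 0.04, 1.93, 0.04 and 9.31 CPM with Nfib, against 0, 0.57, 0 and 18.8 CPM with empty vector. It was seen above the limit of 3 counts in Lmyc5 and in the old Lmyc3 pair, and at 0 or 1 count elsewhere. Gria1 (ENSMUSG00000020524, chr11:57011387-57330244, plus strand), encoding GluA1, reached 49 counts, or 2.25 CPM, in the Nfib library of pair 2, against 2 counts in its empty vector library. In the other 6 libraries it had 0 to 2 counts, and it did not pass the filter on low counts.

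**Figure D1:**
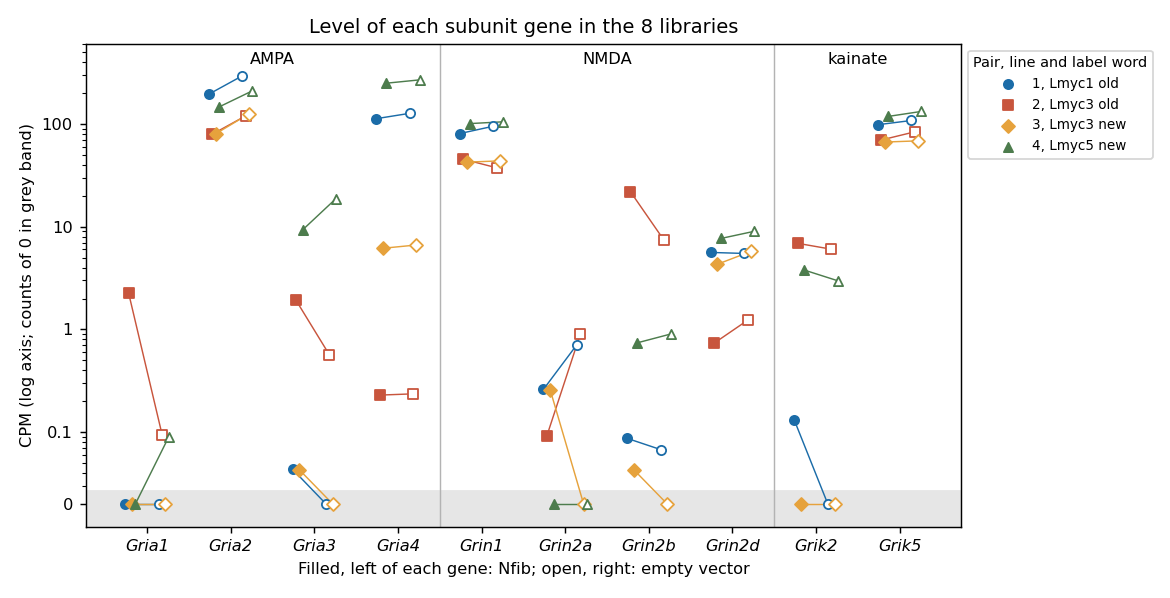
CPM (log axis, with counts of 0 drawn in the grey band) of the 10 members in the 8 libraries, filled points for Nfib on the left of each gene and open points for empty vector on the right, with lines joining the 2 libraries of a pair. Gria2, Grin1 and Grik5 are at or above 37.4 CPM in all 8 libraries, while Gria4 ranges from 0.23 to 268 CPM by culture.

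Among the NMDA receptor genes, Grin1 was the highest in every library, per kilobase of exon as well as in CPM. Grin1 (ENSMUSG00000026959, chr2:25291181-25319187, minus strand) had 80.6, 45.4, 42.5 and 101 CPM with Nfib, against 95.0, 37.4, 43.7 and 105 CPM with empty vector. The Lmyc3 pairs were again lower than the others, and the arms overlapped. An antisense gene, Grin1os, shares 1307 exon bases with Grin1 on the opposite strand and had at most 1 count in a library, but whether the counting used strand is not given in the sources used here, so reads of the pair in those bases cannot be told apart.

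Grin2d (ENSMUSG00000002771, chr7:45831883-45870928, minus strand), a glutamate-binding subunit known in the brain from early life, had 5.62, 0.73, 4.31 and 7.67 CPM with Nfib, against 5.49, 1.23, 5.74 and 9.02 CPM with empty vector. It was seen in all 8 libraries and was lowest in the old Lmyc3 pair, and the arms overlapped. It shares 643 exon bases with a gene on the opposite strand, Gm45441. Grin2b (ENSMUSG00000030209, chr6:135713232-136173511, minus strand), another glutamate-binding subunit, had 21.9 CPM with Nfib and 7.41 CPM with empty vector in pair 2, from 477 and 157 counts. In the other 6 libraries it had 0 to 20 counts, at most 0.90 CPM, and it shares 278 exon bases with genes on the opposite strand. Grin2a (ENSMUSG00000059003, chr16:9577710-9994921, minus strand), the Grin2 subunit that prevails in the adult forebrain, had 6, 2, 6 and 0 counts with Nfib, against 21, 19, 0 and 0 counts with empty vector, and did not pass the filter.

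Among the kainate receptor genes, Grik5 was present at similar levels in every culture. Grik5 (ENSMUSG00000003378, chr7:25009853-25072369, minus strand) had 98.3, 69.8, 66.6 and 118 CPM with Nfib, against 108, 83.8, 68.4 and 132 CPM with empty vector. Its span over the 4 cultures was 0.89 on the log2 scale, and it was lowest in the Lmyc3 pairs. Grik2 (ENSMUSG00000056073, chr10:49099460-49788766, minus strand), encoding GluK2, had 0.13, 6.89, 0 and 3.78 CPM with Nfib, against 0, 6.04, 0 and 2.98 CPM with empty vector. It was seen in Lmyc5 and in the old Lmyc3 pair, and at or under the limit of 3 counts in Lmyc1 and in the new Lmyc3 pair.

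Gria1, Gria3, Grin2b and Grik2 were seen in the old Lmyc3 pair and were at 0 or 1 count in both libraries of the new pair that bears the same line name. The Nfib library of the old pair held 49, 42, 477 and 150 counts of these 4 genes, and its empty vector library 2, 12, 157 and 128 counts. Whether this goes with the words old and new, with the line stocks or with another difference between the pairs cannot be told apart.

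Levels of different genes were compared per kilobase of exon. On that scale the mean over the 8 libraries was 18.0 ± 4.83 (SD) CPM per kb for Grik5, 15.3 ± 17.9 for Gria4, 10.1 ± 4.71 for Gria2 and 7.09 ± 3.02 for Grin1. All other members lay under 1 CPM per kb: Grin2d averaged 0.747 ± 0.430, Gria3 0.389 ± 0.693, Grik2 0.187 ± 0.217, Grin2b 0.157 ± 0.310, Gria1 0.0503 ± 0.130 and Grin2a 0.0155 ± 0.0193 CPM per kb. The lowest library of Grin1, at 3.86 CPM per kb, was above the highest of Grin2d, at 1.35 CPM per kb, whereas the other neighbours in this order overlapped. The order of the leading genes depends on the length used, since the annotated exons of Gria2 sum to 15548 bases against 2649 coding bases. Per kilobase of coding sequence Gria2 came first, with 59.0 ± 27.6, ahead of Gria4 with 35.6 ± 41.6, Grik5 with 31.7 ± 8.51 and Grin1 with 23.9 ± 10.2 CPM per kb.

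The AMPA mix followed the culture. By summed CPM per kb of exon, Gria2 made up 41.3, 89.4, 84.0 and 18.9% of the AMPA total in the Nfib libraries of pairs 1 to 4, against 48.5, 98.6, 88.5 and 23.3% in the empty vector libraries. Gria4 made up 58.7, 0.64, 15.9 and 79.2% with Nfib, against 51.5, 0.48, 11.5 and 73.4% with empty vector. The share of Gria2 was thus largest in the Lmyc3 pairs, where Gria4 was low, and smallest in Lmyc5, and within each pair it was the smaller in the Nfib library. In pair 2 the shares that were larger with Nfib were mainly those of Gria1 and Gria3. Gria1 made up 6.52% with Nfib and 0.20% with empty vector there, and Gria3 3.42 and 0.73%. With coding length the Gria2 share was 63.9, 94.8, 92.9 and 36.6% with Nfib, against 70.3, 99.3, 95.1 and 42.7% with empty vector, in the same order of cultures.

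Counting the members only, the NMDA and kainate mixes changed less between cultures than the AMPA mix. For kainate this depended on the length used once all genes of the class were summed. Grik5 then ranged over the libraries from 51.6 to 98.2% by exon length, beside 18.9 to 98.6% for Gria2 in the AMPA total. By coding length the ranges were nearly alike, 36.3 to 96.8% for Grik5 and 36.6 to 99.3% for Gria2. Among the 4 NMDA members Grin1 made up 90.6, 82.4, 86.8 and 89.8% of CPM per kb with Nfib, against 91.9, 87.9, 83.9 and 88.6% with empty vector. Grin2d held most of the rest, up to 16.1%, except in pair 2, where Grin2b held 15.5% with Nfib and 6.79% with empty vector. Between the kainate members Grik5 made up at least 96.3% in every library. When all genes of a class were summed, Grin3a, a subunit known to lower the calcium flow of NMDA receptors, made up 35.9, 27.4, 32.6 and 18.8% of the NMDA total with Nfib, against 18.5, 13.8, 15.1 and 15.4% with empty vector. Grik3, a kainate subunit of low glutamate affinity, then made up 37.6, 33.0, 1.76 and 39.3% of the kainate total with Nfib, against 38.3, 46.5, 6.71 and 28.7% with empty vector, the rest being almost all Grik5.

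**Figure D2:**
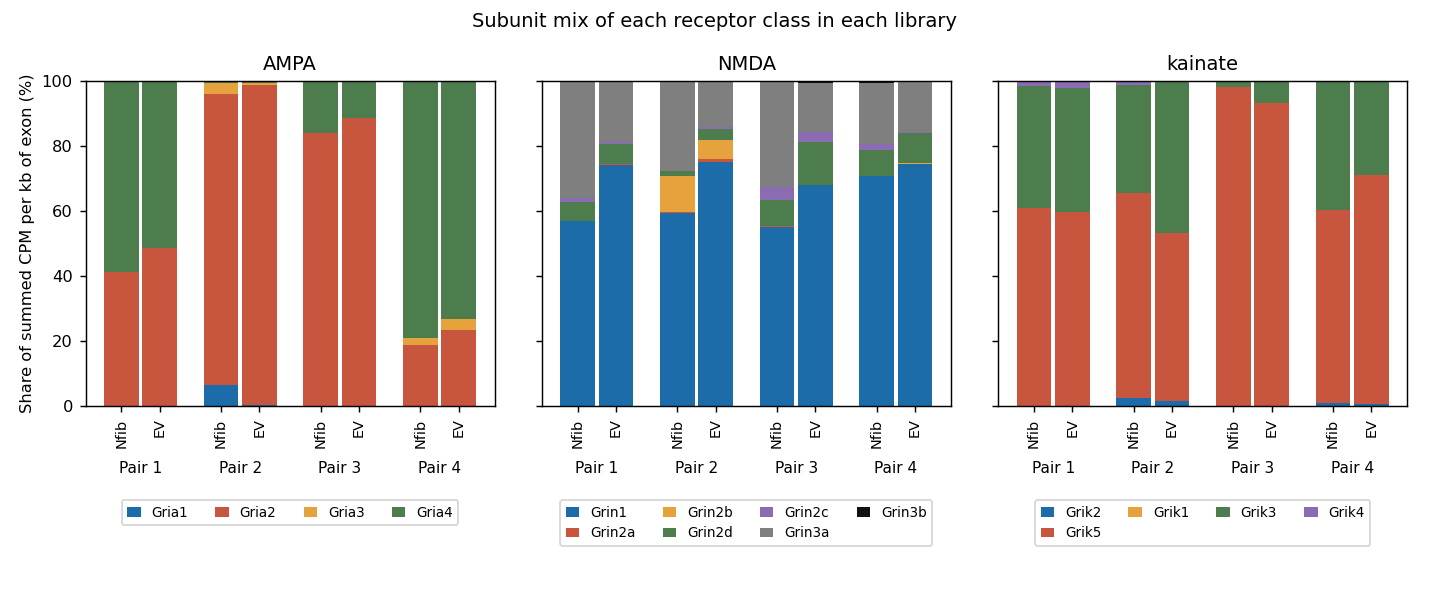
Share (%) of each gene in the summed CPM per kb of exon of its class, all ionotropic genes of the class included, with a bar for the Nfib library and a bar for the empty vector (EV) library of each pair. Gria2 and Gria4 divide most of the AMPA total by culture, with Gria1 at 6.52% and Gria3 at 3.42% in the Nfib library of pair 2. Grin1 leads the NMDA total with 55.0 to 75.0%, and Grik5 with Grik3 make up the kainate total in nearly full.

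Within pairs, Gria2 was the member with the most even difference between Nfib and empty vector, with Gria4 close to it. Its log2 ratio of Nfib over empty vector was -0.59, -0.59, -0.65 and -0.52 in pairs 1 to 4, with a mean of -0.59 ± 0.05 (SD, n = 4 pairs), and its mean level was 125 ± 56.1 CPM with Nfib and 188 ± 82.3 CPM with empty vector (SD, n = 4 each). The difference of the arm means was of the size of the spread between cultures within an arm, whereas the 4 ratios spread far less than their mean. In RNA from whole cultures, fewer cells with a transcript and less of it per cell cannot be told apart.

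Gria4 and Grik5 were also lower with Nfib in 4 of 4 pairs, by smaller ratios. For Gria4 the log2 ratios were -0.17, -0.03, -0.10 and -0.11 (SD 0.06), and for Grik5 they were -0.14, -0.26, -0.04 and -0.16 (SD 0.09). Of the 13380 genes kept by the filter on low counts and tested, 12.8% were lower in all 4 pairs and 12.8% higher, beside 3 and 0 of the 8 members tested. Grin1 had ratios of -0.24, 0.28, -0.04 and -0.06, lower in 3 pairs and higher in the old Lmyc3 pair. Grin2d was lower in 3 pairs and had 5.62 CPM with Nfib and 5.49 CPM with empty vector in pair 1.

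The low members differed mostly in the old Lmyc3 pair. There the log2 ratio of Grin2b was 1.55 and that of Gria3, from 42 and 12 counts, was 1.63, and Gria1 had 49 counts with Nfib and 2 with empty vector. In Lmyc5 Gria3 had the opposite sign, with a ratio of -1.01. Grik2 had 150 counts with Nfib and 128 with empty vector in the old Lmyc3 pair, and 97 with Nfib and 66 with empty vector in Lmyc5.

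**Figure D3:**
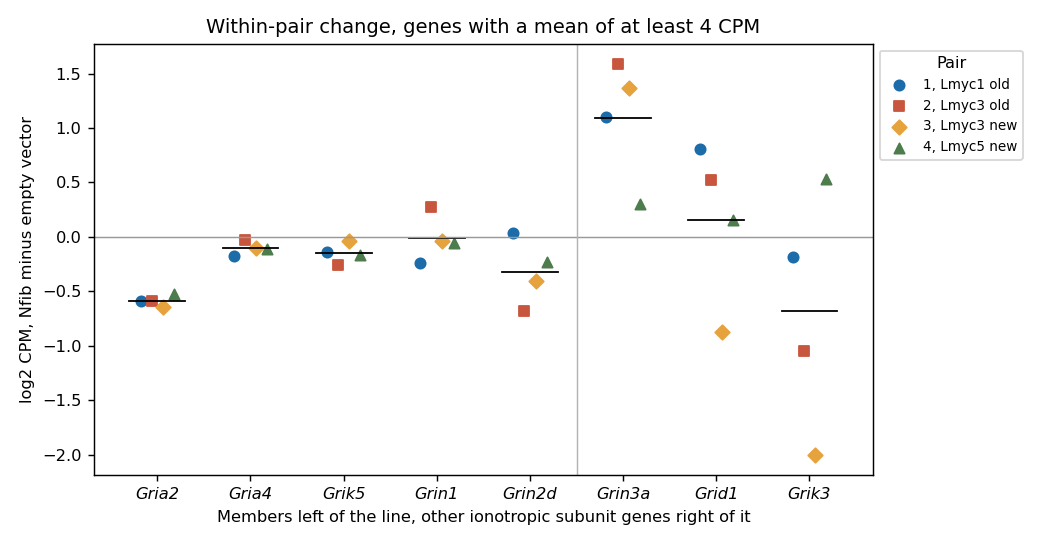
Log2 CPM ratio of Nfib over empty vector in each pair (points) and its mean (bars) for 8 ionotropic subunit genes with a mean of at least 4 CPM. The 4 points of Gria2 lie between -0.65 and -0.52, and those of Grin3a between 0.31 and 1.59, while Grik3 has points on both sides of 0.

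Fitted over all genes with the pair as a block, DESeq2 placed the difference of Gria2 at -0.60 ± 0.06 (log2 fold change ± SE), of Gria4 at -0.14 ± 0.10, of Grik5 at -0.16 ± 0.08, of Grin1 at -0.03 ± 0.12 and of Grin2d at -0.30 ± 0.26. The estimates for Gria3, Grin2b and Grik2 were 0.82 ± 0.89, 0.78 ± 0.61 and 0.57 ± 0.62, with errors near or above their size. At an adjusted p under 0.05 this fit called 543 of 13380 genes, or 4.06% (1.86% higher and 2.2% lower), and Gria2 was the only 1 of the 8 tested members among them. Since the members were picked with this contrast in view, nothing is read from that count. The estimates of the members and the calls of Gria2, in this fit or another, are likewise descriptions and no independent support. edgeR called 0 genes without the block, with 83 at an unadjusted p under 0.05, and 0 with the block, with 2012 at an unadjusted p under 0.05, and its bias-adjusted form with the block called 0.329% (0.224% higher and 0.105% lower), Gria2 included. The smallest adjusted p of the original edgeR test was 0.99998 without the block and 0.0657 with it. Nfib itself was thus not called there, although its arms did not overlap and paired DESeq2 gave it an adjusted p of 1.76e-64. A gene that those edgeR fits did not call is therefore not shown to be unchanged.

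The difference between the change in the new pairs and the change in the old pairs was a further contrast. It is built from the same within-pair ratios that had been seen when the members were picked. For the members its values are therefore a description and no independent support. edgeR called 0 of 13380 genes for it, with 405 at an unadjusted p under 0.05, and DESeq2 called 7, none of them a member. For Gria2 the log2 ratio differed by 0.01 ± 0.11 between new and old pairs by edgeR (new minus old, ± SE). For Gria4, Grik5 and Grin1 the difference was 0.06 ± 0.13, 0.10 ± 0.12 and -0.06 ± 0.20. The largest difference of a member was that of Gria3, -2.68 ± 0.85, with an unadjusted p of 0.0284 and an adjusted p of 0.9997 in edgeR's quasi-likelihood test. With 2 pairs on each side, a p above the threshold does not show that the changes were alike.

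Of the subunit genes outside the 10, Grin3a rose with Nfib. It had 64.4, 26.5, 31.9 and 33.9 CPM in the Nfib libraries, against 30.1, 8.73, 12.3 and 27.4 CPM in the empty vector libraries, higher in 4 of 4 pairs with the smallest difference in Lmyc5. The DESeq2 fit with the pair as a block gave a log2 fold change of 1.08 ± 0.24 (adjusted p = 4.88e-04), and edgeR with the same block gave an adjusted p of 0.174. Grik3 had 106, 63.3, 2.07 and 135 CPM with Nfib, against 120.5, 131, 8.56 and 93.7 CPM with empty vector, and its fold change of -0.68 ± 0.52 did not pass (adjusted p = 0.642 by DESeq2). Grik3 was lowest in the new Lmyc3 pair, where Gria4 was at 6.17 CPM with Nfib and 6.63 CPM with empty vector.

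Around the receptors, 73 genes in 8 lists were looked at, of which 72 were in the table and 57 were tested. By DESeq2 with the block 4 were higher and 3 lower, together 12.3% beside the 4.06% of all genes, and the median log2 fold change of the 57 was -0.11, beside -0.01 for all genes tested. The lists were written with earlier results of these data known, in which Dlg4 and Shank1, both among the genes called, had been named. The 12.3% is therefore a description, and no enrichment is read from it. By either form of edgeR with the block 0 of the 57 passed. Of the 11 AMPA receptor auxiliary genes tested, Cacng4, a transmembrane regulator of AMPA receptors, was the 1 called. It had 46.1, 81.8, 26.6 and 55.9 CPM with Nfib, against 28.2, 65.0, 11.6 and 37.7 CPM with empty vector, a log2 fold change of 0.68 ± 0.17 (DESeq2 adjusted p = 0.00459, edgeR with the block 0.177). Shisa6, which had the highest CPM of that list, did not pass (-0.54 ± 0.18, DESeq2 adjusted p = 0.0571).

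Of the 25 scaffold and trafficking genes tested, 1 rose and 3 fell by DESeq2. Nptx1, a secreted pentraxin that gathers AMPA receptors, had 81.6, 65.7, 24.2 and 67.4 CPM with Nfib, against 127, 91.2, 61.4 and 164 CPM with empty vector. Its log2 fold change was -0.94 ± 0.18 (DESeq2 adjusted p = 4.30e-05, edgeR with the block 0.166), and like Gria2 it was lower in 4 of 4 pairs. The postsynaptic scaffold genes Shank1 and Dlg4 (PSD-95) fell by 0.48 ± 0.14 and 0.24 ± 0.07 on the log2 scale (DESeq2 adjusted p = 0.0215 and 0.0316), and Homer3 rose by 0.61 ± 0.19 (adjusted p = 0.0432). Homer2, with a mean of 298 CPM the highest of the list, did not pass (-0.15 ± 0.06, adjusted p = 0.11).

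In the remaining lists, Camk2b, a subunit of the calcium/calmodulin-dependent kinase downstream of NMDA receptors, rose by 0.64 ± 0.20 (DESeq2 adjusted p = 0.0454). Among the genes of ligand supply 2 were tested and 0 passed: Srr, the serine racemase that makes the NMDA receptor co-agonist D-serine and the one with the higher CPM, had -0.23 ± 0.12 (DESeq2 adjusted p = 0.389). Among the 3 RNA editing enzymes 0 passed: Adarb1, which edits the glutamine/arginine codon of Gria2, had 51.1, 41.2, 40.0 and 51.4 CPM with Nfib, against 43.8, 35.6, 28.2 and 40.4 CPM with empty vector (0.31 ± 0.10, DESeq2 adjusted p = 0.0571), and Adar, which had the highest CPM of the 3, had -0.07 ± 0.09. The kainate receptor partners Neto2 and Neto1 had -0.27 ± 0.11 and -0.50 ± 0.21, and neither passed. Of 4 metabotropic receptor genes tested 0 passed, and Grm5, the highest of them by CPM, averaged 7.67 CPM, most of it in the old Lmyc3 pair. The vesicular glutamate transporters Slc17a6, Slc17a7 and Slc17a8 were at or under 0.56 CPM in every library and were not tested.

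Several calls in these lists were lost when a pair was left out or the scaling was changed. Grin3a and Nptx1 passed the DESeq2 fit whichever pair was left out, Cacng4 passed 2 of those 4 fits, Shank1, Homer3 and Camk2b 1 each, and Dlg4 0. The estimates of these genes kept their sign in all 4 fits. Those fits also called fewer genes of all, 234 to 382 beside 543, so a lost call does not show that it rested on the pair left out. With scaling by total counts, which moved the median of all genes by less than 0.1 log2, Dlg4 no longer passed (adjusted p = 0.103) and Adarb1 did (0.0255). Gria2 had -0.56 on that scale. Among the 7 neuroendocrine markers Nkx2-1 fell by 0.39 ± 0.11 by DESeq2 (adjusted p = 0.0122) and passed 2 of the 4 fits without a pair, and edgeR with the block gave an adjusted p of 0.198. Syp, Uchl1 and Neurod1 were also lower in 4 of 4 pairs, with DESeq2 estimates of -0.47 ± 0.16, -0.16 ± 0.07 and -0.30 ± 0.30, and did not pass. Neurod1 was near the floor in its lowest libraries, at 0 CPM with Nfib and 0.18 CPM with empty vector. Of the 7 markers, 6 had a negative and 1 a positive estimate in this fit. Chga ranged from 790 to 930 CPM with Nfib and from 425 to 1691 CPM with empty vector. The part of these markers in the values of the receptor genes was not tested.

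**Figure D4:**
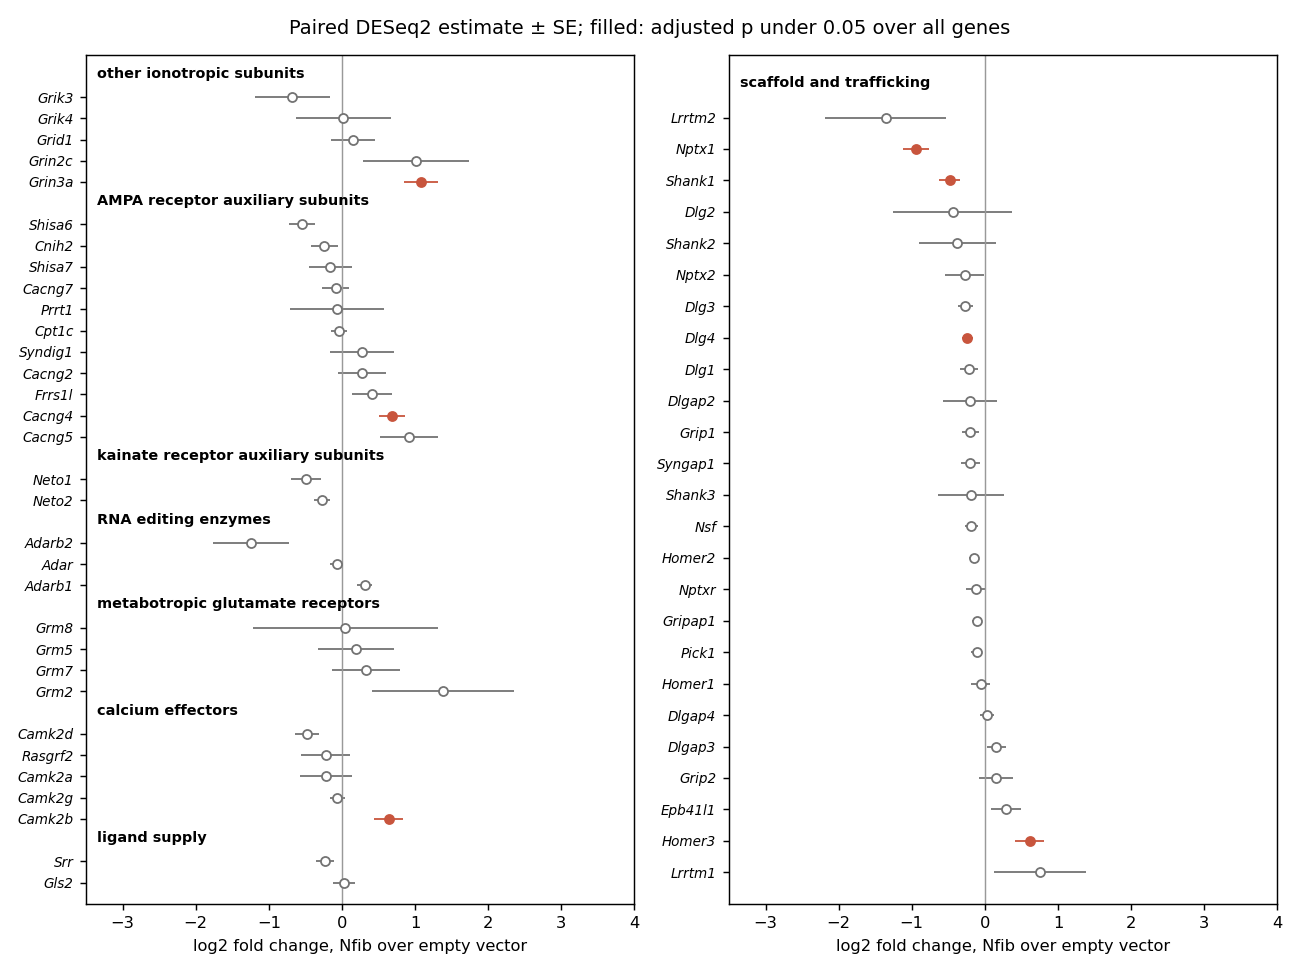
Log2 fold change of Nfib over empty vector (point) with its SE (line) from DESeq2 with the pair as a block, for the 57 tested genes of the 8 lists around the receptors. Filled points are the 7 genes with an adjusted p under 0.05 over all genes: Grin3a, Cacng4, Camk2b and Homer3 to the right of 0, and Nptx1, Shank1 and Dlg4 to the left.

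The genes whose log2 CPM ran most alike to the leading member of each class over the 8 libraries, among 10937 genes with a mean of at least 5 CPM, are given as a description; the 8 libraries share 4 cultures and 2 arms. For Gria2 they were Kctd7, Ensa and Poli, with Pearson r of 0.974, 0.968 and 0.968. For Grin1 they were Slc35d1, Xist and Cntn4 (r = 0.992, 0.986 and 0.986). For Grik5 they were Plk3, Nipsnap3b and Sept5 (r = 0.994, 0.992 and 0.989).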

How the data were processed

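The deposited table holds raw read counts per gene for the 8 libraries; the authors aligned reads with TopHat2 2.1, Bowtie 1.0.0 and SAMtools 0.1.19 on GRCm38 (mm10), per the submitters' processing notes, which also list DESeq2. Libraries followed the TruSeq RNA protocol, per the labels; for the counting program and its use of strand, the sources used here name nothing. From these counts, CPM were computed on library sizes with edgeR's TMM factors, and log2 values with a prior count of 2. Genes were kept by filterByExpr (13380 of 22691). All of the 10 members matched the GENCODE vM21 annotation by identifier, chromosome and start within 100 kb, and exon and coding lengths come from it.

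Differences of Nfib and empty vector were fitted over all genes kept with edgeR 4.0.16 (quasi-likelihood test, no block) as the main fit, with the pair as a block, and with DESeq2 1.42.0 with the block, in R 4.3.3, with Benjamini-Hochberg adjustment and a threshold of 0.05. Per the descriptions, libraries that share a number come from 1 line. As a check of the pairing, deviations from the arm means correlated at r = 0.908, 0.884, 0.935 and 0.929 between libraries of the same number. Between libraries of different numbers r ran from -0.534 to 0.0647, so paired values stand beside the unpaired ones. Across the pairs that bear the name Lmyc3, r was -0.482 and -0.534. Deviations sum to 0 within an arm, which draws r between different pairs below 0. These values therefore do not tell whether different pairs share a line. In a single simulated data set, the paired fits called more unchanged genes than the threshold allows, DESeq2 the most and edgeR in its original form the least. The edgeR results are given beside those of DESeq2 for that reason. Changes as small as that of Gria2 were not simulated, and the order of the fits rests on that single draw. Named genes outside the members are those of the 8 lists that passed the paired DESeq2 test, the gene of highest CPM in each list, and the 3 genes most alike to the leading member of each class; Adarb1, Neto1 and Nkx2-1 were named after their values were seen. The members and the lists were chosen with earlier results of these data known. Some genes of the lists are not reported here. Leaving out each pair, other scalings, filters and lengths were tried as alternatives.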

Additional observations from a re-analysis of the deposited data

Results flagged for a closer look

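Each gene was looked at in the 4 Nfib libraries, in the 4 empty vector libraries and in the 4 within-pair ratios, for the members, the other subunit genes and the listed genes that passed a test. In 6 of the 63 such sets, 1 value stood apart from the other 3 by more than Dixon's critical value. Chance passes that value in about 1 of 20 sets of independent, normally spread values. CPM with counts of 0 are not of that kind, and both arms repeat the same cultures. The members were also picked with their levels seen, so the 6 sets are not compared with that rate. Gria1 was flagged in the Nfib arm for pair 2, at 2.25 CPM, with 0 counts in the other 3. Grin2b was flagged for pair 2 in both arms, at 21.9 CPM with Nfib and 7.41 CPM with empty vector. Gria3 was flagged in the empty vector arm for pair 4, at 18.8 CPM, beside 9.31 CPM with Nfib in that pair. Of the genes outside the 10, Grik4 was flagged in the empty vector arm for pair 1, at 4.47 CPM, and Grid1 in the empty vector arm for pair 4, at 49.5 CPM. For Gria3, Grik4 and Grid1 the Nfib library of the same pair was likewise the highest of its arm.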

How the results depend on the processing

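The edgeR fit without the pair block called 0 genes higher and 0 lower and 0 genes of the lists, and so did the other edgeR settings of filter, scaling and left-out pair. DESeq2 without the block called 3 higher and 0 lower. With the replicate block, DESeq2 called 249 higher and 294 lower, 7 of them in the lists, the bias-adjusted edgeR form called 30 higher and 14 lower, and edgeR in its original form 0 and 0. With the block and total-count scaling DESeq2 called 324 higher, 201 lower and 7 in the lists. Leaving out each pair in turn, DESeq2 with the block called 175, 178, 145 and 108 genes higher, 176, 204, 89 and 143 lower, and 4, 3, 4 and 5 in the lists, without pairs 1, 2, 3 and 4. The mean share of Grin1 among NMDA genes over the 8 libraries was 87.7% and was 66.7% with all NMDA genes in the sum. The mean share of Grik5 among kainate genes was 98.9%, against 97.2% by coding length, 97.4% with no length and 69.6% with all kainate genes in the sum, and that of Grik2 was 1.07%, 2.83% by coding length and 2.64% with no length. These sums over all genes of a class were added after seeing the data. Gria2 kept its sign in every setting run, and the fold change of Gria3 differed in sign between fits, at -0.77 by edgeR and -0.78 by DESeq2 without the block, and at 0.21 by edgeR, -0.51 by its bias-adjusted form and 0.82 by DESeq2 with the block. The cause was not tested. Coding length came from the annotated coding exons, since no protein table was at hand. Depth limits Gria1, Grin2a and the libraries of Gria3, Grin2b and Grik2 with 3 or fewer counts, where no fold can be given.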
